A study of Mus musculus with 219 samples.

Results

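The intact blastocysts are the mouse embryos of this series that were never bisected at the 2-cell stage and grew to the blastocyst as whole embryos after intracytoplasmic sperm injection (ICSI). They were taken from the blastocyst count matrix by the word intact in their labels. They number 31 of the 69 blastocysts in that matrix, and the series holds 219 samples in all. In 11 of them the sperm head had been placed opposite the meiotic spindle of the oocyte (contralateral, Co), in 8 next to the spindle (ipsilateral, written isolateral in the labels, Is) and in 12 at a position in between (equatorial, Eq). The spindle marks the animal pole of the oocyte, so the comparison asks whether the place of sperm entry can still be read in the transcripts of the blastocyst. All oocytes were B6C3F1 and all sperm came from 1 strain, CD1, and the injected oocytes were cultured in pools in KSOM medium with amino acids. Each library was made from a single whole blastocyst, so the replicates are separate embryos.

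The blastocyst is the stage at which the embryo first holds distinct lineages. The outer trophectoderm, which forms the placenta, depends on Cdx2 and Gata3 and builds an epithelium of keratins Krt8 and Krt18 around the blastocoel. The inner cell mass sorts into epiblast, which forms the fetus and carries Nanog, Sox2 and the ligand Fgf4, and primitive endoderm, which forms the yolk sac endoderm. Primitive endoderm is specified by Gata6, matures through Gata4, Sox17 and Pdgfra, and secretes the basement membrane of collagen IV and laminin. Because whole embryos were lysed, fewer cells of a type and less RNA per cell cannot be told apart.

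Total counts ranged from 234099 to 1254428 per blastocyst, with 9376 to 12435 genes detected in Co, 11671 to 12766 in Is and 8264 to 12633 in Eq. Total counts under 500000 were seen in 4 Co and 2 Eq blastocysts and in 0 Is blastocysts. Under 10000 genes were detected in Co_77, Co_82, Co_83 and Co_86 and in Eq_99, Eq_110 and Eq_111 (named by site and the labels' embryo number), again in 0 of the 8 Is blastocysts. These 7 libraries are left out in the comparisons described as without the low-detection libraries. Wells on the plate followed the site: row F held 8 Co, row G 3 Co and 6 Is, row H 2 Is and 6 Eq, and row I 6 Eq, so that Co and Eq never shared a row and cannot be told apart from their rows. Of 9 cumulus cell markers 0 were abundant enough to be tested, and of 12 oocyte transcripts 1 was. The summed cumulus cell level was 0 to 142.6 CPM (normalised read counts relative to library size, scaled by the trimmed mean of M values), highest in Eq_110.

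All 31 blastocysts carried the trophectoderm markers. Krt18 ranged from 856 CPM to 3065 CPM over the 31 embryos, Krt8 from 591 to 1544 CPM, Gata3 from 439 to 1655 CPM and Cdx2 from 9.98 to 171 CPM. The inner cell mass markers were lower and were not detected in every embryo. Sox2 had 0 counts in 3 Co and 1 Eq blastocysts, Fgf4 in 4 Co and 3 Eq, Gata4 in 3 Co and 2 Eq, Sox17 in 1 Co and 2 Eq, and Pdgfra in 1 Co and 2 Eq. At least 1 of these 5 genes had 0 counts in 9 of the 31 blastocysts, 5 of them Co and 4 Eq, whereas all 8 Is blastocysts had counts of all 5. Among these 9, Co_77, Co_82, Co_83, Eq_99 and Eq_110 were low-detection libraries, a kind that Is did not hold. In them a 0 allowed from 8.60 CPM (Co_83) to 14.8 CPM (Eq_110), taken as 3 counts with counting error only. The highest such limit in Is was 5.76 CPM (Is_93). A 0 in those libraries does not show that a gene was absent, and the part of detection in this split was not tested.

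**Figure D1:**
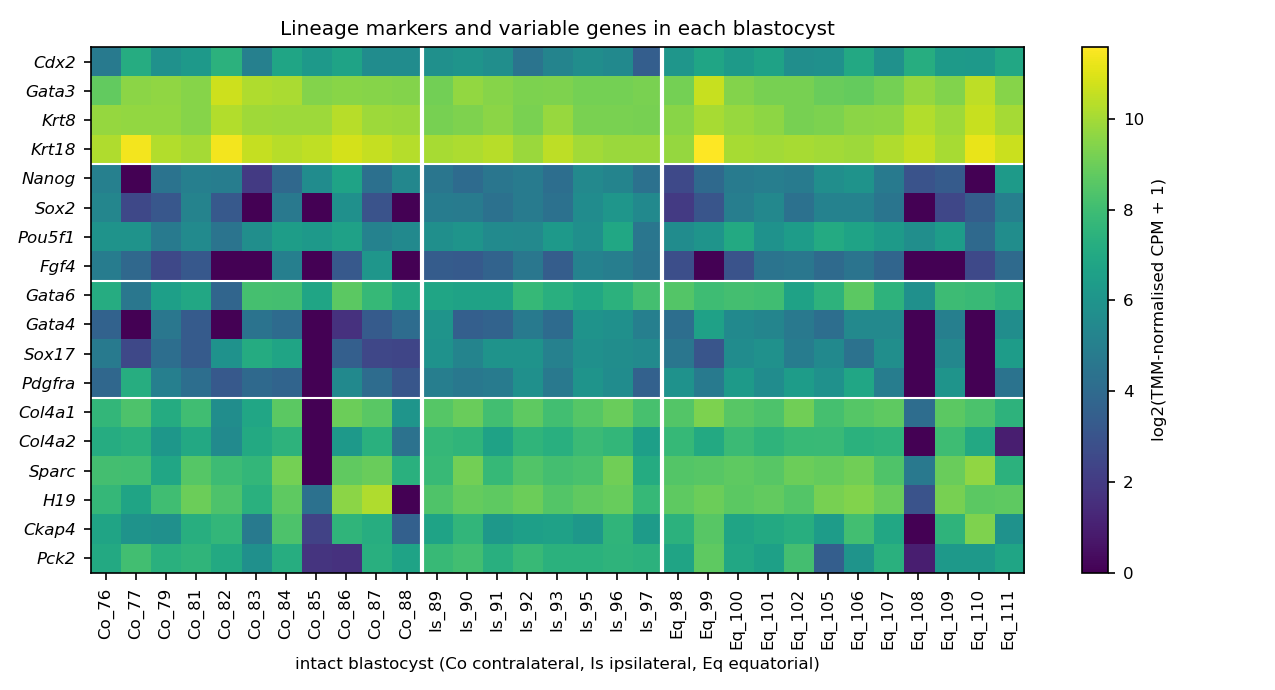
Each column is 1 intact blastocyst and each row a gene; the colour is log2(CPM + 1), dark where a gene had no counts. Gata3, Krt8 and Krt18 at the top are bright in every column, and Cdx2 is dimmer, down to 9.98 CPM in Is_97. Co_85 and Eq_108 are dark for Sox2, Fgf4, Gata4, Sox17 and Pdgfra.

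A pair of well-covered embryos stood apart in these markers. Co_85 and Eq_108 were picked out after their values had been seen, and they were the only 2 blastocysts with 0 counts of all 5 genes. Their libraries were deep, at 1254428 and 974655 counts, so that a count of 0 allowed up to 2.35 CPM in Co_85 and 2.92 CPM in Eq_108 (3 counts, counting error only). Col4a2, a collagen IV chain, was also at 0 counts in both. Its partner Col4a1 was at 0 CPM in Co_85 and 16.6 CPM in Eq_108 against medians of 204 in Co, 364 in Is and 360.3 in Eq. Sparc, a secreted matrix protein that binds collagen IV, was at 0 and 24.4 CPM. H19, an imprinted noncoding RNA expressed from the maternal allele, was at 18.8 and 6.82 CPM against medians of 264 in Co and 433 in Eq.

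Other epiblast and primitive endoderm markers were still detected in the same embryos. Their reads come from whole embryos and cannot be assigned to a cell type. Pou5f1, a pluripotency factor, stood at 73.7 CPM in Co_85 and 52.6 CPM in Eq_108, within the range of the other blastocysts. Nanog stood at 48.6 CPM in Co_85 and 6.82 in Eq_108, and Gata6 at 111.3 and 55.6 CPM. Trophectoderm genes were within the range of the other blastocysts, with Cdx2 at 72.9 and 146.2 CPM and Gata3 at 682 and 873 CPM. The Cdx2 level of Eq_108 was the highest in Eq. Co_88 shared a part of this profile, with 0 counts of Sox2, Fgf4 and H19, but it kept Col4a1 at 65.7 CPM and Gata4 at 16.2 CPM. Eq_110, the library with the fewest detected genes, also had 0 counts of Gata4, Sox17 and Pdgfra, but at its 249597 counts a 0 allowed up to 14.8 CPM.

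The balance between epiblast and trophectoderm leaned with the site, but not beyond the correction for the 6 lineage comparisons. Summed epiblast transcripts were lowest relative to trophectoderm in Co and highest in Is. Among single markers, Sox2, Fgf4 and Spp1 were also highest in mean in Is, but Nanog and Pou5f1 were not. Spp1 had a mean of 93.8 CPM beside a mean epiblast sum of 386.6 CPM over all blastocysts, and the ratio without Spp1 is not given. The log2 ratio of the summed CPM of 15 epiblast to 17 trophectoderm markers ran from -7.19 (Co_82) over a median of -5.27 to -3.94 (Co_76) in Co. In Is it ran from -4.68 over -4.45 to -2.84, and in Eq from -8.43 (Eq_110) over -4.54 to -3.75. The ranges of all 3 sites overlapped. The mean was -5.28 ± 1.12 in Co (SD, n = 11), -4.12 ± 0.69 in Is (n = 8) and -4.95 ± 1.44 in Eq (n = 12).

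Co lay 1.16 log2 units below Is, a difference of -1.16 (SE 0.42, two-sided exact permutation p = 0.0185, Benjamini-Hochberg adjusted p = 0.111 over 6 comparisons). Is minus Eq was 0.84 (SE 0.48, exact permutation p = 0.147, adjusted p = 0.22) and Co minus Eq was -0.33 (SE 0.53, permutation p = 0.557). Without Eq_110 these were 0.52 and -0.64, and without Co_82 Co minus Eq was -0.13. The Co to Is difference moved with the low-detection libraries, at -0.81 without them (exact permutation p = 0.0852). The summed trophectoderm level was itself highest in low-detection libraries, at 17713 CPM in Co_82, 15223 in Eq_110 and 13701 in Eq_99, and the part of detection in the ratio was not tested.

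The log2 ratio of 17 primitive endoderm to the 15 epiblast markers, taken over whole embryos, was lowest in Is. It shares its epiblast sum with the first ratio. The mean primitive endoderm sum was 2605 CPM in Is and 2661 in Eq, and the mean epiblast sum 528 and 359 CPM. Co_85 and Eq_108, without counts of Gata4, Sox17 and Pdgfra, still had primitive endoderm sums of 1104 and 943 CPM. The ratio is therefore not a measure of cells within the inner cell mass. This ratio ranged from 1.96 over 2.75 to 4.29 in Co, from 1.64 over 2.34 to 3.21 in Is and from 2.38 over 2.697 to 5.73 (Eq_110) in Eq, again with overlap between all sites. Is minus Eq was -0.74 (SE 0.34, exact permutation p = 0.0578, adjusted p = 0.173), Co minus Is was 0.49 (SE 0.28, exact permutation p = 0.106, adjusted p = 0.212) and Co minus Eq was -0.25 (SE 0.35, permutation p = 0.509, adjusted p = 0.557). Without Eq_110 Is minus Eq was -0.51 and Co minus Eq was -0.02, and without Co_83 Co minus Eq was -0.39.

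**Figure D2:**
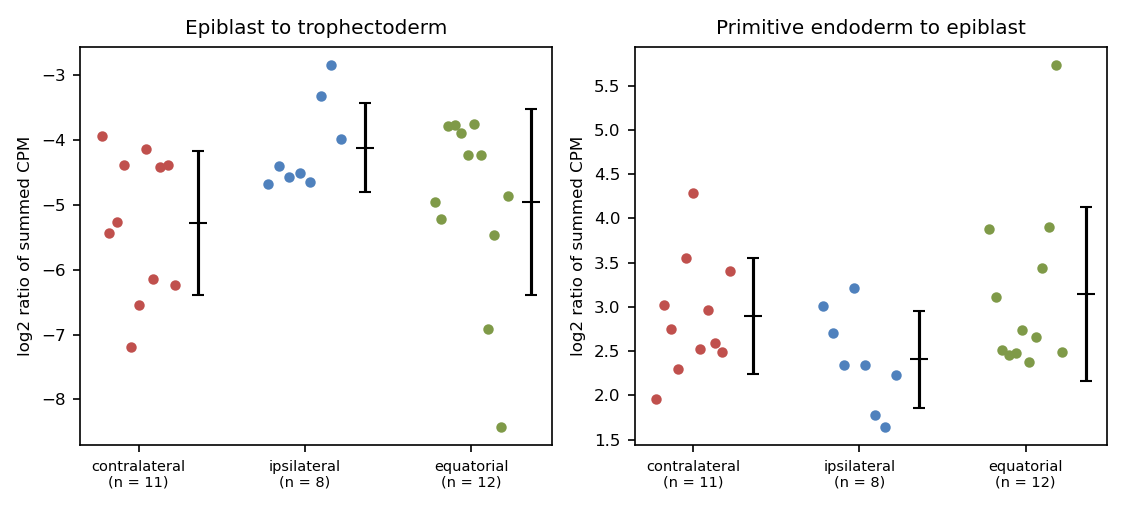
Points are single blastocysts by ICSI site and bars the mean ± SD of the log2 ratios of summed CPM, epiblast to trophectoderm and primitive endoderm to epiblast. Means of the first ratio are -5.28 in Co, -4.12 in Is and -4.95 in Eq, and the points of the sites overlap.

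The clearest difference between the sites was in how alike their blastocysts were. The Is blastocysts resembled one another more than the Co blastocysts did. The distance of a blastocyst was taken as 1 minus the Spearman correlation of its log2 profile, thinned to 234099 counts, with the mean profile of the other blastocysts of its site, over 9165 genes. It was 0.120 to 0.276 in Co with a median of 0.184, 0.0934 to 0.160 in Is with a median of 0.102, and 0.107 to 0.328 in Eq with a median of 0.153. The mean distance was 0.195 ± 0.0505 in Co, 0.110 ± 0.0222 in Is and 0.177 ± 0.0717 in Eq (SD). The distances of a site share most of their reference profile, so they are not independent values. The permutations shuffled the distances without recomputing the profiles, and their p-values and SEs may therefore overstate the evidence.

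Co exceeded Is by 0.0842 (SE 0.0171, exact permutation p = 0.000529, adjusted p = 0.00159 over 3 comparisons). This difference was also seen without the low-detection libraries (0.0477, adjusted p = 0.0219) and between the 3 Co and 6 Is blastocysts of plate row G (0.0915, exact permutation p = 0.0119). The p of row G is the smallest this test can give for 3 against 6 embryos. Of the 3 Co embryos, Co_86 (0.263) was a low-detection library, and Co_88 (0.162) lay close to Is_90 (0.160). The distances within a plate row, in row G and in row H, were still taken to the mean profile of the whole site, which held mostly row F embryos for Co and row G embryos for Is, so the row is not held constant in them. Is was below Eq by a difference of -0.0665 (SE 0.0221, exact permutation p = 0.0169, adjusted p = 0.0254), but this call was lost without the low-detection libraries (-0.0237, adjusted p = 0.168). It was also lost without the libraries under 500000 counts (-0.0354, adjusted p = 0.0729), within plate row H (-0.0409, exact permutation p = 0.464) and when any of 5 Is blastocysts (Is_89, Is_91, Is_93, Is_95 or Is_96) was left out, which gave -0.0634 to -0.0612. Co minus Eq was 0.0176 (SE 0.0257, permutation p = 0.504).

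The number of detected genes moved with the distance. After thinning to the same total, 9925 ± 644 genes were detected in Co, 11008 ± 264 in Is and 10133 ± 1168 in Eq. Co minus Is had an exact permutation p of 0.000569 (adjusted p = 0.00512 over 9 comparisons of depth measures) and Is minus Eq one of 0.0453 (adjusted p = 0.102). Eq_110 had both the fewest genes after thinning, 8179, and the largest distance, 0.328. Leaving out the low-detection libraries did not level detection between Co and Is. The Co blastocysts that were kept ran from 9872 (Co_84) to 10826 (Co_76) genes after thinning, against 10616 to 11349 in Is. The part of detection in the distance was not tested.

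**Figure D3:**
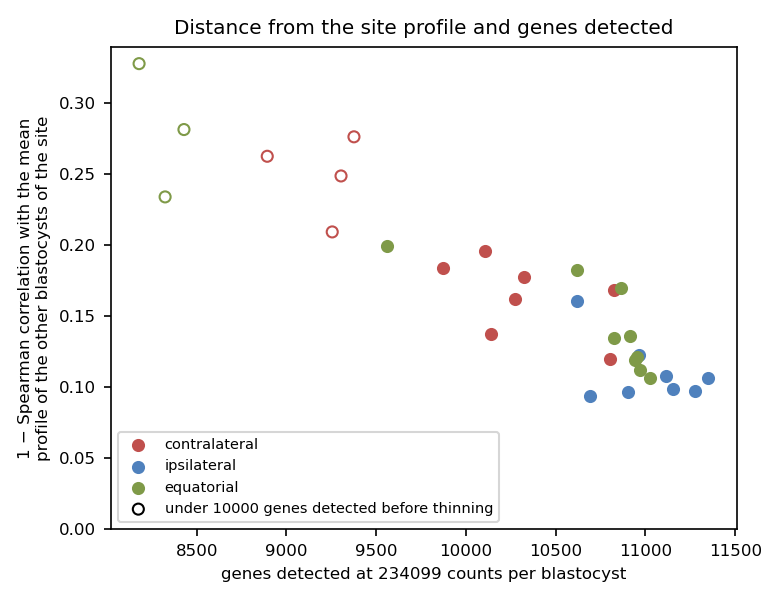
Distance of each blastocyst from the mean profile of its site against its number of genes detected at 234099 counts, coloured by ICSI site. Blastocysts with fewer genes sit higher, up to Eq_110 at 8179 genes and 0.328, and the 8 Is blastocysts sit at the lower right, between 0.0934 and 0.160.

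Single genes also spread least in Is. The median SD of log2 levels between blastocysts of a site, over 7590 genes, was 1.04 in Co, 0.56 in Is and 1.10 in Eq. Without the low-detection libraries it was 0.73 in Co (n = 7), 0.56 in Is (n = 8) and 0.64 in Eq (n = 9). The levels for these SDs were thinned to 234099 counts and not TMM-normalised, so they include added sampling noise. They are not on the scale of the SDs of single genes given next.

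Among 2713 genes with a mean of at least 100 CPM, several of the most variable ones within sites were products of the primitive endoderm matrix and imprinted genes. Without the low-detection libraries the median within-site SD (log2) of these genes was 0.402. On the same libraries H19 had an SD of 2.27, Col4a2 2.17, Baiap2l1 2.13, Sparc 1.95, Ckap4 1.93 and Col4a1 1.88. H19 ran from 0 to 1183 CPM, Sparc from 0 to 797 and Col4a1 from 0 to 633. The libraries kept for these SDs included Co_85 and Eq_108, which held the lowest Col4a2, Col4a1 and Sparc among them. The SDs of those genes rest in part on these embryos, and SDs without them are not given. The top 15 also held Phlda2 (SD 1.27) and Kcnq1ot1 (SD 1.25), both from the imprinted region near H19, and Plet1 (SD 1.28), a surface protein of the trophoblast. Pck2, the mitochondrial phosphoenolpyruvate carboxykinase (SD 1.77), was low in Co_85 and Eq_108, at 2.35 and 0.975 CPM against medians of 129.9 in Co and 100.2 in Eq, but also in Co_86 at 2.10 CPM and Eq_105 at 9.87 CPM.

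The differences of single genes between sites were small beside the spread between embryos. Of 9165 genes tested with edgeR's quasi-likelihood test, 0 (0%) passed a Benjamini-Hochberg adjusted p under 0.05 in any of the 3 comparisons. The smallest adjusted p was 0.277 for Co against Eq, 1.00 for Is against Eq and 0.786 for Co against Is. At an unadjusted p under 0.05, 629 genes (6.86%) stood out between Co and Eq, 338 (3.69%) between Is and Eq and 522 (5.7%) between Co and Is. DESeq2 called 1, 0 and 0 genes at an adjusted p under 0.05, and a rank-sum test on length-scaled levels (TPM) called 0 of 10465 in each, with 564 (5.39%), 786 (7.51%) and 1033 (9.87%) at an unadjusted p under 0.05. The median SE of a log2 fold change was 0.43 to 0.47 for genes of 20 to 100 CPM, 0.24 to 0.27 for 100 to 500 CPM and 0.18 to 0.20 above, which limits the size of difference this fit can show. These SEs were derived from the log2 fold change and the edgeR test statistic. The fit used 1 spread per gene for all 3 sites, although single genes spread least in Is. The genes below lie toward the small end of the p-values by the way they were chosen, and their values are descriptions.

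Co against Eq compares sperm entry opposite the spindle with entry in between. Co blastocysts had more Malat1, less mitochondrially encoded transcript and lower levels of mitotic genes and of primitive endoderm genes, none of them past the adjusted threshold. The 629 genes at an unadjusted p under 0.05 were split into 302 higher (3.3%) and 327 lower (3.57%) in Co. The split was 456 higher and 296 lower with library size and detected genes as covariates, and 182 higher (1.74%) and 382 lower (3.65%) by the rank-sum test.

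Malat1, an abundant nuclear noncoding RNA (GRCm38 chromosome 19, 5795690 to 5802672), had the smallest p. It ranged from 2765 over a median of 5070.1 to 14673 CPM in Co, from 2771 over 3495 to 4297 in Is, and from 1330 over 3170 to 6396 in Eq. Co_82, Co_83, Co_86 and Co_87 lay above all embryos of the other sites, while the lower Co embryos overlapped. Of these, Co_82, Co_83 and Co_86 were low-detection libraries and Co_87 had 437854 counts. The highest Eq value was that of Eq_99, also a low-detection library. The log2 fold change was 0.94 (SE 0.21, edgeR unadjusted p = 5.79e-05, adjusted p = 0.277), and over the alternatives it lay between 0.67 and 1.08 with adjusted p from 0.0465 (without Eq_99) to 1.00. Slc28a3, a nucleoside transporter, ranged from 387 over 472 to 776 CPM in Co and from 184 over 301 to 477 CPM in Eq, with a log2 fold change of 0.68 (SE 0.17). Xlr3a, an X-linked gene of a multicopy family whose members share sequence and are therefore uncertain, differed by 1.09 (SE 0.27).

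Ago4, an Argonaute protein of small RNA pathways, was the gene called by DESeq2 (adjusted p = 0.0291). Its levels ran from 10.8 over 18.8 to 334 CPM in Co and from 0 over 6.80 to 33.1 CPM in Eq, so its log2 fold change of 2.55 (SE 0.59) rested in part on high single embryos. Hsf2, a heat shock transcription factor, had a log2 fold change of 1.58 and ran up to 292 CPM in Co against 50.7 in Eq, and its fold change was 0.50 without the low-detection libraries and 2.25 with plate row as a term. Ccl25, a chemokine, differed by 2.56 at a median of 25.0 CPM in Co and 5.17 CPM in Eq.

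On the lower side, Gucd1 ran from 5.74 over 18.8 to 43.4 CPM in Co and from 23.8 over 49.02 to 128.8 CPM in Eq (log2 fold change -1.498, SE 0.38, edgeR adjusted p = 0.292). Fdxr, the mitochondrial ferredoxin reductase, differed by -2.48 and was at 0 counts in 2 Co embryos, while in Eq it reached 354 CPM in 1, and its fold change was -0.86 without the libraries under 500000 counts and -4.59 with plate row as a term. Ajuba, a LIM protein that binds the Hippo kinase Lats, had a median of 14.1 CPM in Co and 33.97 CPM in Eq (log2 fold change -1.92, SE 0.58). Rassf7, Cd2bp2 and Ppp1r21 differed by -1.10, -1.05 and -1.33.

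Gata4, the transcription factor of maturing primitive endoderm (chromosome 14, 63198922 to 63271692), was lower in Co than at either other site. It ran from 0 over 9.15 to 23.4 CPM in Co, from 10.3 over 28.4 to 62.2 in Is and from 0 over 34.7 to 99.4 in Eq. The log2 fold change was -1.73 against Eq (SE 0.61, edgeR unadjusted p = 0.00683, adjusted p = 0.583) and -1.75 against Is (SE 0.65, unadjusted p = 0.00999, adjusted p = 0.822). Without the low-detection libraries these were -1.23 and -1.51, and without Co_85 and Eq_108 they were -1.70 and -1.59. Of 15 primitive endoderm genes tested, 2 had a higher and 13 a lower mean in Co than in Eq. Their median was -0.27 beside 0.00 over all genes tested. Of the 15, 1 (Gata4) reached an unadjusted p under 0.05, beside 3.57% lower among all genes. Without the low-detection libraries that median was -0.53. Gata6 (-0.45, SE 0.33), Pdgfra (-0.88, SE 0.58) and Sox17 (-0.01, SE 0.58) did not.

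Of 16 mitotic genes, 1 had a higher mean in Co than in Eq, the median was -0.37, and 3 were lower at an unadjusted p under 0.05, beside 3.57% lower among all genes. Aurkb, the kinase of the chromosomal passenger complex, ran from 0 over 5.74 to 56.98 CPM in Co and from 0 over 37.8 to 82.98 CPM in Eq (log2 fold change -1.63, SE 0.54, edgeR unadjusted p = 0.00409). Ube2c and Cdc20, both of the anaphase-promoting system, differed by -0.65 (SE 0.22) and -0.61 (SE 0.26). Without the low-detection libraries the median of the list was -0.51, and 7 genes were lower at an unadjusted p under 0.05, while without the libraries under 500000 counts it was -0.27, with 1 gene lower. The lean was not particular to Co. In Is against Eq 2 of the 16 had a higher mean (median -0.28), and in Co against Is 6 had (median -0.11).

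Of the 13 mitochondrially encoded messages, 0 had a higher mean in Co than in Eq, with a median of -0.42, and 4 were lower at an unadjusted p under 0.05, beside 3.57% lower among all genes. With library size and detected genes as covariates the median was -0.23, with 2 of 13 higher in mean. Mt-Nd1, a complex I subunit, had a median of 1299 CPM in Co and 1584 CPM in Eq (log2 fold change -0.58, SE 0.20, edgeR unadjusted p = 0.00516), and mt-Cytb, of complex III, had medians of 1187 and 1819 CPM (-0.56, SE 0.20). These messages are cut from shared precursors of 1 small genome, so they are not independent of one another. Over all mitochondrial genes the share of counts was 1.504% ± 0.391 in Co, 1.95% ± 0.380 in Is and 1.98% ± 0.521 in Eq (SD), with a permutation p of 0.0191 for Co against Eq and an exact permutation p of 0.0252 for Co against Is (both adjusted p = 0.0757). The 80 tested nuclear subunits of oxidative phosphorylation had a median of -0.03, with 36 of them higher in mean in Co.

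Sterol synthesis genes leaned the other way, with 12 of 17 higher in mean in Co than in Eq, a median of 0.27 and 2 higher at an unadjusted p under 0.05, beside 3.3% higher among all genes. Without the libraries under 500000 counts the median was 0.13, with 1 gene at that p. Insig1, the sterol sensor that holds back this pathway, had a median of 263 CPM in Co, 179.9 in Is and 139.7 in Eq (log2 fold change Co to Eq 0.98, SE 0.33, edgeR unadjusted p = 0.00457). Sterol synthesis genes were also higher in Is than in Eq, with 14 of 17 higher in mean (median 0.18).

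Is against Eq compares entry next to the spindle with entry in between. Is blastocysts had less Cdkn1a and less Cdx2 and Krt8, and the other p53 target genes lay mostly on the same side as Cdkn1a. The 338 genes at an unadjusted p under 0.05 were 100 higher (1.09%) and 238 lower (2.6%) in Is. This split depended on the method, at 573 higher (5.48%) and 213 lower (2.04%) by the rank-sum test, 48 and 46 with library size and detected genes as covariates, 232 and 316 without the low-detection libraries, and 1016 and 976 with no filter on low counts.

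Cdkn1a, which encodes the cyclin-dependent kinase inhibitor p21 and is a main target of p53 (chromosome 17, 29090976 to 29100727), separated these sites. It ran from 74.95 over a median of 166 to 193 CPM in Is, from 126.8 over 198 to 383 CPM in Co and from 195 over 275 to 489 CPM in Eq. The Is and Eq ranges did not overlap, while Co overlapped both. Cdkn1a had the smallest p of 9165 genes in this comparison, so the separation follows in part from that choice. The share of genes with separate ranges was not counted, and 3.69% of genes had an unadjusted p under 0.05. The log2 fold change Is to Eq was -0.92 (SE 0.22, edgeR unadjusted p = 0.000109, adjusted p = 1.00). It lay between -0.98 and -0.82 over the alternatives, with adjusted p from 0.116 to 1.00. Of 12 p53 targets tested, 1 had a higher mean in Is than in Eq, and the median was -0.35 beside -0.03 over all genes. Cdkn1a was the 1 gene at an unadjusted p under 0.05, beside 2.6% lower among all genes. Lower means in Is were not particular to this list. Of 9 apoptosis regulators 1 was higher in mean (median -0.33), and of 16 mitotic genes 2 were (median -0.28). Cdkn1a was also lower in Co than in Eq (log2 fold change -0.43, SE 0.19, edgeR unadjusted p = 0.0316, adjusted p = 0.696).

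Cdx2, the transcription factor that drives the trophectoderm (chromosome 5, 147300805 to 147307270), ran from 9.98 over 47.3 to 61.9 CPM in Is, from 26.2 over 72.9 to 171 in Co and from 51.5 over 79.3 to 146.2 in Eq. Most Is embryos lay below most Eq embryos, with overlap between 51.5 and 61.9 CPM. The log2 fold change Is to Eq was -1.12 (SE 0.35, edgeR unadjusted p = 0.00282, adjusted p = 1.00), and -1.04 without the low-detection libraries. Krt8, an epithelial keratin (chromosome 15, 101996698 to 102004482), ran from 592 over 617 to 879.5 CPM in Is and from 591 over 829.9 to 1544 CPM in Eq (-0.46, SE 0.16, unadjusted p = 0.00683). Its partner Krt18 differed by -0.38 (SE 0.21), and by 0.00 without the low-detection libraries. The highest Krt8 values in Eq were those of Eq_110 (1544 CPM), Eq_108 (1219), Eq_99 (1075) and Eq_111 (1031). All of these but Eq_108 were low-detection libraries. The whole trophectoderm list did not lean as these genes did, with 7 of 16 higher in mean in Is and a median of -0.06 (12 of 16 and 0.10 without the low-detection libraries), and Id2 (-0.09, SE 0.14) and Elf5 (0.28, SE 0.23), a regulator of trophoblast stem cells, were near or above the Eq level.

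Epiblast genes had a median of 0.75 in Is against Eq beside -0.03 over all genes, with 7 of 11 higher in mean. Spp1, osteopontin, was the 1 gene of this list at an unadjusted p under 0.05, beside 1.09% higher among all genes. Its levels ran from 78.1 over 145 to 282 CPM in Is and from 0 over 59.998 to 154 CPM in Eq (log2 fold change 1.32, SE 0.50, edgeR unadjusted p = 0.0127). Sox2 (0.80, SE 0.67) and Fgf4 (0.79, SE 0.76) had larger means in Is, and Nanog (-0.17, SE 0.55) and Pou5f1 (-0.36, SE 0.35) had not. The values of the other 4 genes lay within 2 SE of 0.

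The remaining genes with small p in this comparison had no list in common. Blnk, an adaptor protein known from B cell signalling, ran from 39.5 over 77.4 to 184 CPM in Is and from 1.93 over 13.8 to 65.1 CPM in Eq (log2 fold change 1.95, SE 0.52). Ccdc28a, Acpp, Chaf1b and the trafficking subunits Trappc6b and Trappc2 differed by 1.42, 0.99, 1.12, 1.13 and 1.72. On the lower side were Ptms, parathymosin (-1.19), Akr1b8, an aldo-keto reductase (-0.67), Grn, the lysosomal protein progranulin (-1.22), Eif3d, a subunit of translation initiation factor 3 (-0.77), and Jup, junctional plakoglobin (-1.21). Eif3d ran from 116.9 over 137 to 296 CPM in Is and from 170.2 over 252 to 487 CPM in Eq.

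**Figure D4:**
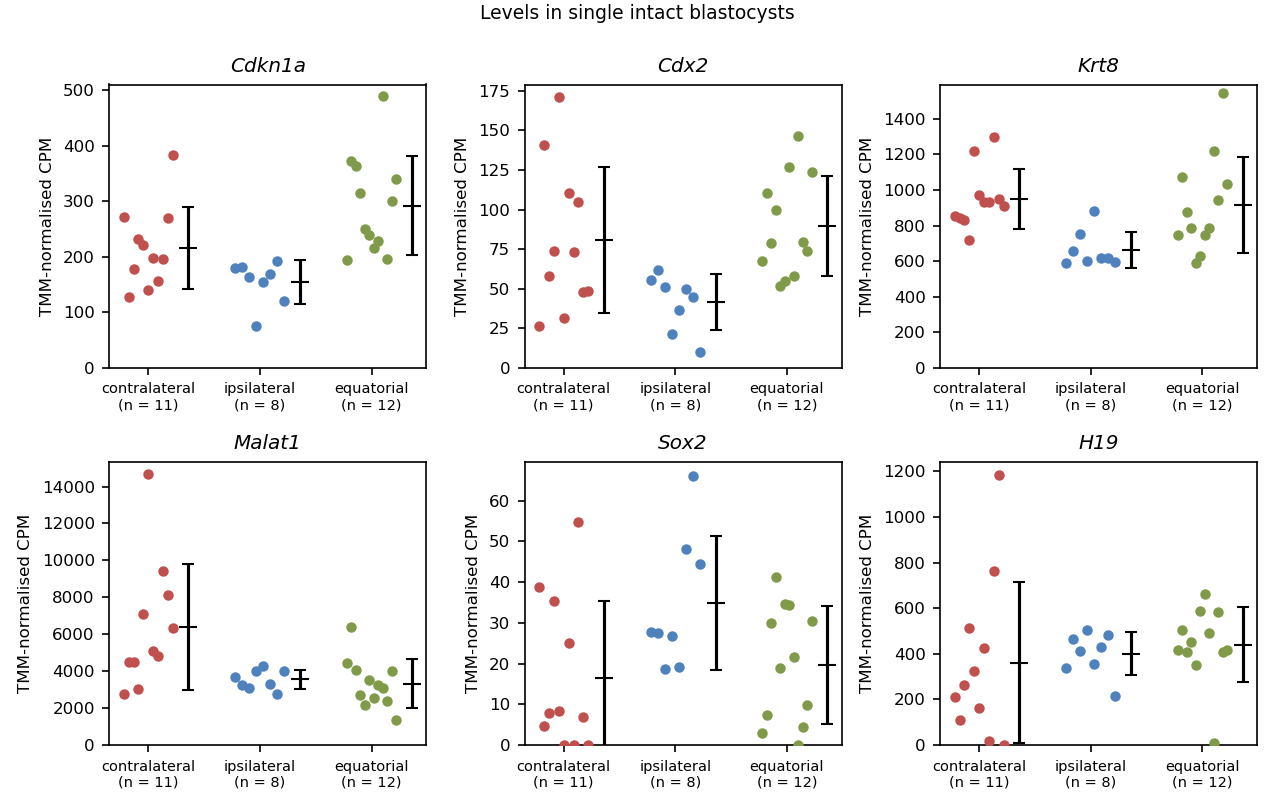
TMM-normalised CPM of Cdkn1a, Cdx2, Krt8, Malat1, Sox2 and H19 in each intact blastocyst by ICSI site, with the mean ± SD (bars end at 0 where the SD passes it). The 8 Is points of Cdkn1a, up to 193 CPM, lie below the 12 Eq points, which start at 195 CPM, and in the other panels the sites overlap.

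Co against Is sets the opposite sides of the oocyte against each other. Trophectoderm and junction genes were higher in mean in Co, and Fn1, Gata4 and most epiblast genes in Is, none of them past the adjusted threshold. The 522 genes at an unadjusted p under 0.05 were 372 higher (4.06%) and 150 lower (1.64%) in Co. This too depended on the method, at 182 higher (1.74%) and 851 lower (8.13%) by the rank-sum test, 1052 and 1078 with no filter on low counts, 239 and 178 without the low-detection libraries, and 239 and 204 with the plate row as a term.

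Of 16 trophectoderm genes tested, 14 had a higher mean in Co than in Is, with a median of 0.34 beside 0.03 over all genes. At an unadjusted p under 0.05, 4 were higher, beside 4.06% higher among all genes. Krt8 differed by 0.52 (SE 0.17, edgeR unadjusted p = 0.00302), Krt18 by 0.56 (SE 0.21), Cdx2 by 0.94 (SE 0.36) and Tfap2c, a factor that acts upstream of Cdx2, by 0.70 (SE 0.26). Without the low-detection libraries the median was 0.07 and 1 gene was at that p, and with library size and detected genes as covariates the median was 0.00 with 7 of 16 higher.

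Of 14 genes that seal and fill the blastocoel, most of them of cell junctions, 10 had a higher mean in Co. Their median was 0.26 beside 0.03 over all genes. At an unadjusted p under 0.05, 5 were higher, beside 4.06% higher among all genes. Cldn4, a claudin, ran from 96.9 over 218 to 475 CPM in Co and from 101.8 over 123.8 to 174 CPM in Is, a log2 fold change of 0.96 (SE 0.26, edgeR unadjusted p = 0.000507, adjusted p = 0.822) that lay between 0.43 and 0.97 over the alternatives. Cgn, cingulin (0.95), Cdh1, E-cadherin (0.61), and Cldn7 (0.33) were also among them. Without the low-detection libraries the median was 0.07, and 1 of the 14 reached that p. With library size and detected genes as covariates the median was 0.04, and 0 of the 14 reached it.

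Fn1, the extracellular matrix protein fibronectin (chromosome 1, 71585520 to 71653200), was detected in all 8 Is blastocysts and had 0 counts in 3 Co and 1 Eq. It ran from 0 over 9.39 to 22.9 CPM in Co, from 23.04 over 39.8 to 77.3 CPM in Is and from 0 over 22.6 to 74.9 CPM in Eq. The Co and Is ranges came close without overlapping. Fn1 was chosen by its small p, so this separation too follows in part from the choice. The share of genes with separate ranges was not counted, and 5.7% of genes had an unadjusted p under 0.05. The log2 fold change was -2.22 (SE 0.67, edgeR unadjusted p = 0.00175), -1.89 without the low-detection libraries and -0.87 with library size and detected genes as covariates.

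Tubb6, a beta tubulin, ran from 0 over 42.2 to 141 CPM in Co and from 98.4 over 155 to 215 CPM in Is (log2 fold change -1.34, SE 0.39). Creb3l2, a membrane-bound transcription factor of the secretory pathway, differed by -1.88, and Abcf2, the isoleucyl-tRNA synthetase gene Iars and the SUMO activating subunit Uba2 by -0.79, -0.53 and -0.62. Of 11 epiblast genes 1 had a higher mean in Co, and the median was -0.49 (-0.11 with library size and detected genes as covariates). Spp1 (-1.05) and Nr0b1 (-2.56) were lower at an unadjusted p under 0.05, beside 1.64% lower among all genes. The defining markers Sox2 (-1.05, SE 0.69), Fgf4 (-0.34, SE 0.78) and Nanog (0.30, SE 0.57) did not reach an unadjusted p under 0.05. Of 15 primitive endoderm genes 2 had a higher mean in Co, with a median of -0.38, and without the low-detection libraries 0 of 15 had, with a median of -0.51.

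On the higher side in Co, Akr1b8 ran from 236 over 358 to 601 CPM against 167 over 219 to 282 CPM in Is (log2 fold change 0.79, SE 0.19, edgeR unadjusted p = 0.00011, adjusted p = 0.786). Igsf9, an immunoglobulin superfamily member (1.75), Tsnax, translin-associated factor X (1.09), and Tpm3, a tropomyosin (0.68), followed. Lars2, the mitochondrial leucyl-tRNA synthetase, differed by 1.85, but its transcript contains a stretch like mitochondrial ribosomal RNA and its counts are uncertain. Further lists in Co against Is, at an unadjusted p under 0.05, stood beside 4.06% higher and 1.64% lower among all genes. Of 17 Atf4 stress response genes 2 were higher and 4 lower, and of 10 chaperones 3 were higher. Of 51 endoplasmic reticulum and Golgi genes 4 were higher and 1 lower, and of 14 glycolysis genes 1 was higher and 2 lower. Without the low-detection libraries 0 Atf4 genes were higher and 1 lower, and 0 chaperones reached that p.

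The direction of the ribosomal protein genes turned with the low-detection libraries. These genes have many processed pseudogenes, with which reads can be shared. Of 83 cytosolic ribosomal protein genes, 69 had a higher mean in Co than in Is (median 0.20), but 29 had without those libraries (median -0.05). Likewise 17 of 83 were higher in mean in Is than in Eq (median -0.13), but 81 without those libraries (median 0.21).

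**Figure D5:**
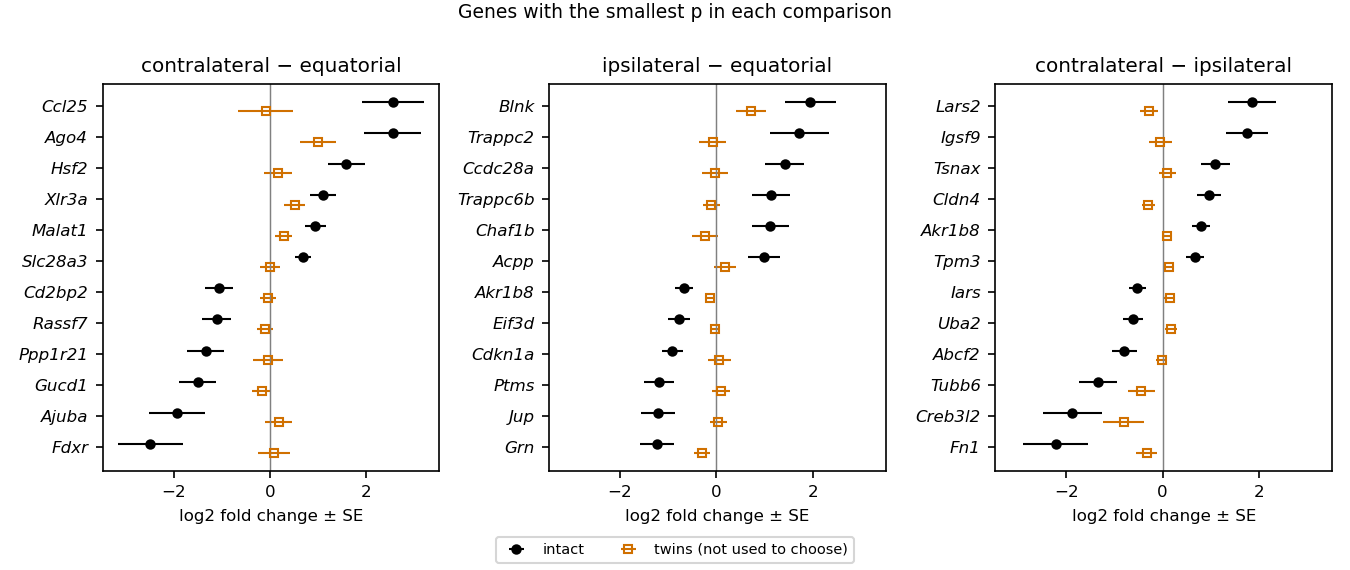
Log2 fold changes ± SE of the 12 genes with the smallest p in each comparison, in intact blastocysts (filled) and in embryos whose 2 twin blastocysts were added together (open). The intact values are far from 0 because p chose them, from -2.48 for Fdxr to 2.56 for Ccl25, and the twin values scatter on both sides of 0.

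The 19 bisected embryos of the series, whose twin blastocysts share no embryo with the intact ones, gave an independent reading of the same genes. With both twins added, they numbered 6 Co, 7 Is and 6 Eq. Of the 12 named genes of each comparison, 8 had the same sign in the twins for Co against Eq, 5 for Is against Eq and 7 for Co against Is, 20 of 36 in all. The same sign with an unadjusted p under 0.05 was found for 3, Ago4 and Xlr3a in Co against Eq and Blnk in Is against Eq, and the opposite sign at that p for 1, Cldn4 in Co against Is (-0.30). The unadjusted background in the twins was 6.62%, 3.87% and 6.86% of 10995 genes.

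Some lists turned in the twins and others did not. The 13 mitochondrially encoded messages, of which 0 were higher in mean in intact Co than Eq, were higher in 13 of 13 in the twins (median 0.23), and the mitotic genes in 13 of 16 (median 0.14). Epiblast genes in Is against Eq had a higher mean for 1 of 10 (median -0.26) and primitive endoderm genes in Co against Eq for 10 of 15 (median 0.12), both opposite to the intact embryos. So were the p53 targets in Is against Eq, with 8 of 12 higher in mean (median 0.04). The genes that seal and fill the blastocoel also turned in Co against Is, with 5 of 14 higher (median -0.05). Epiblast genes in Co against Is did not lean in the twins, with 5 of 10 higher in mean (median 0.01). Trophectoderm genes in Co against Is kept their direction, with 12 of 16 higher (median 0.12), as did primitive endoderm genes in Co against Is, with 5 of 15 higher (median -0.25), and sterol synthesis genes in Co against Eq, with 10 of 17 higher (median 0.06). A term for the interaction of site with bisection over 10689 genes called 0 (0%) at an adjusted p under 0.05 in any comparison with edgeR. At an unadjusted p under 0.05 it gave 290 (2.71%), 220 (2.06%) and 362 (3.39%) genes for Co against Eq, Is against Eq and Co against Is. A difference of the site effects between intact and bisected embryos was therefore not detected for a single gene.

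The sex of the embryos did not differ detectably between the sites. Y-linked transcripts (Ddx3y, Eif2s3y, Kdm5d, Uty) were found in 5 of 11 Co, 2 of 8 Is and 6 of 12 Eq blastocysts, 13 of 31 in all, with 132 to 507 counts where present and 0 counts otherwise. Fisher's exact test gave p = 1 for Co against Eq, 0.373 for Is against Eq and 0.633 for Co against Is, adjusted to 1, 0.95 and 0.95. Xist, the noncoding RNA that silences an X chromosome, was counted in all 31, and its reads cannot be told apart from those of its antisense partner Tsix because counting ignored the strand. It ran from 128.9 over 490 to 1295 CPM in the 18 embryos without Y-linked transcripts, and from 11.4 over 198 to 685 CPM in the 13 with them, so the ranges overlapped. By site, Xist ran from 52.5 over 611 to 1295 CPM in Co, from 204 over 354 to 691 in Is and from 11.4 over 245 to 579 in Eq (Co to Eq log2 fold change 1.05, SE 0.51, edgeR unadjusted p = 0.0474).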

How the data were processed

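Single blastocysts were lysed whole and sequenced with a full-length single-cell kit (SMART-Seq). Per the study's methods and the submitters' processing notes, reads were trimmed with Trimmomatic, checked with FastQC 0.12.1 and mapped without regard to strand to the mouse genome GRCm38 with STAR 2.7.10b. The deposited counts per gene were not normalised by the authors, and their columns were assigned to blastocysts by their names. In all 2227665 entries compared they equalled the counts of the series in which reads of identical ends were collapsed. They are therefore not counts of all reads, and the effect of collapsing on the levels was not tested. Here only the 31 intact columns entered the comparisons, with the twins (both added) for the interaction. Gene coordinates and lengths came from GENCODE M21.

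Members, gene lists and tests were chosen with earlier results of these data known. Genes passing edgeR's expression filter were fitted with edgeR 4.0.16 (TMM, robust quasi-likelihood, all 3 sites in 1 fit) in R 4.3.3 with Benjamini-Hochberg adjustment at 0.05. Levels are TMM-normalised CPM, except that the distances and the SDs over 7590 genes used thinned CPM without TMM. Single values were compared by two-sided exact permutation tests, or by 100000 resamples where both groups had over 10 embryos. Named genes are the 6 with the smallest p in each direction and comparison at a mean of at least 20 CPM, without predicted genes, plus some of the list members at an unadjusted p under 0.05 and the defining lineage markers. List members at that p are not all named, and lists that are not described here were also examined. Other genes are named for their spread or were chosen after their values were seen. Alternatives were DESeq2 1.42.0, RLE factors, no filter, only the sites compared, depth, plate row or Y-linked counts as covariates, the study's rank-sum test on TPM, and libraries left out. The scripts were tested on simulated data. Reads carry no molecular identifiers, so limits from a count of 0 cover counting error only. The values of 1 list member are not reported here.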

Additional observations from a re-analysis of the deposited data

Results flagged for a closer look

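Within a site of 4 to 10 embryos, which here means the 8 Is blastocysts, 53 measures were examined for a value far from the rest (Dixon's criterion, 0.526 for 8 values), and 2 stood out. Chance gives about 1 in 20 such groups, so 2 of 53 measures is no more than that share. The distance of Is_90 from the mean profile of its site was 0.160, with the nearest other Is blastocyst at 0.123. The same embryo had 295.7 CPM of Eif3d, with the nearest other at 150.1 CPM, and it had the fewest genes detected after thinning among the Is blastocysts, 10616.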

How the results depend on the processing

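Detection and plate row both limit these comparisons. All 7 libraries under 10000 detected genes were Co or Eq, and site could not be separated from plate row between Co and Eq. Leaving out libraries under 10000 detected genes, leaving out Co_85 and Eq_108, and the distance within plate rows were chosen after seeing the data. Genes called at an adjusted p under 0.05 between Co and Eq were 1 with DESeq2 (Ago4), 1 with library size and detected genes as covariates (Arhgap12, named after its value was seen) and 0 to 1 with an embryo left out (Malat1 without Eq_99).

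With no filter on low counts, which tests 20531 genes in place of 9165, genes at an unadjusted p under 0.05 numbered 2671, 1992 and 2130 for Co against Eq, Is against Eq and Co against Is, and 1595, 1382 and 1554 for the interaction. They were 369 for Co against Eq with only those sites fitted, 132 and 64 for Co and Is against Eq with plate row as a term, and 94 and 307 for Is against Eq and Co against Is with library size and detected genes as covariates. The rank-sum test gave 786 and 1033 for Is against Eq and Co against Is, and Is against Eq gave 548 without libraries under 10000 detected genes and 363 for the interaction without those under 500000 counts. With an embryo left out the counts were 506 to 819, 255 to 402 and 396 to 710.

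The primitive endoderm to epiblast difference of Co and Eq was 0.0031 by mean log2 levels (permutation p = 0.993). The distance of Is and Eq was -0.0354 without libraries under 500000 counts, -0.0237 without those under 10000 detected genes, -0.0409 within row H and -0.0763 to -0.0504 with an embryo left out, no longer past the threshold in 5 of 20. The cause was not tested. That of Co and Is stayed past it, at 0.0759 to 0.0951 with an embryo left out. Of 432 alternative values of the 36 named gene comparisons 0 changed sign, but 25 of the 36 moved by over 1.5 times under at least 1 alternative, most for Hsf2. No paired analysis was possible because each embryo has its own number.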
